A study of Rattus norvegicus with 10 samples.

Results

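The miR-26 family (rno-miR-26a-5p and rno-miR-26b-5p) and the miR-103 and miR-107 family (rno-miR-103-3p and rno-miR-107-3p) were examined in rat heart. The 4 miRNAs were chosen by name, and they are 4 of the 761 rat miRNAs on the array. Left ventricles of male Wistar rats weighing 250 to 350 g were used, with no genetic change in either group. The 5 rats of the Control group received a saline infusion, and the 5 rats of the DEX group received dexmedetomidine (DEX), a sedative agonist of alpha2 adrenergic receptors, in saline for 30 min as a loading dose followed by a maintenance dose. Tissue was taken from the anterior wall after a short saline washout in both groups, without coronary ligation. The animals' age was not given in the sources used here. The RNA of each rat was hybridized to 1 array of the 3D-Gene type, on which each miRNA has 1 spot read in 1 colour.

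MicroRNAs are short RNAs that guide a silencing complex to messenger RNAs, and bases 2 to 8 of the miRNA, the seed, largely decide which messenger RNAs are bound. The miR-26 genes lie in introns of the Ctdsp genes, which encode phosphatases that act on RNA polymerase II, and miR-26 is known for restraining cell growth and proliferation in many tissues. The miR-103 and miR-107 genes lie in introns of the Pank genes, which encode pantothenate kinases for the synthesis of coenzyme A, and miR-103 and miR-107 are known for effects on insulin sensitivity and on Dicer, the enzyme that makes miRNAs. Both families are found in most tissues, and their members often serve as reference miRNAs for normalization of PCR data.

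The mature sequences are shown because each family has 1 seed and its members are nearly identical outside it. They were taken from RefSeq with the GRCr8 build, 5′ to 3′, and the capitals mark the seed.
rno-miR-26a-5p: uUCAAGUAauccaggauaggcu
rno-miR-26b-5p: uUCAAGUAauucaggauaggu
rno-miR-103-3p: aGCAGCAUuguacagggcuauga
rno-miR-107-3p: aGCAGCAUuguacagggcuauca
Counted from the 5′ end of rno-miR-26a-5p, rno-miR-26b-5p differed by the substitution C11U and lacked the base at position 21, with 20 identical bases. rno-miR-107-3p differed from rno-miR-103-3p by the substitution G22C alone, with 22 of 23 bases identical. Of the 761 miRNAs on the array, 685 matched a mature sequence by name, and for each of both seeds only the 2 family members carried it. The probe sequences were not used here. How much of a spot's signal came from the other member of its family was not tested, and the values of members of 1 family carry that uncertainty.

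The mature rno-miR-26a-5p (MIMAT0000796 in the files) maps to chr8:127633063-127633084 on the plus strand, in Mir26a within Ctdspl. The mature rno-miR-26b-5p (MIMAT0000797) maps to chr9:83425723-83425743 on the plus strand, in Mir26b within Ctdsp1. rno-miR-107-3p maps to chr1:241750431-241750453 on the minus strand, in Mir107 within Pank1. rno-miR-103-3p has 2 hairpins with the same mature sequence, Mir103a2 within Pank2 (mature at chr3:138963278-138963300, plus strand) and Mir103a1 within Pank3 on chromosome 10, so its single spot reads the sum of both genes.

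All 4 miRNAs were detected on all 10 arrays. Detection meant that a spot exceeded the mean of the array's blank spots by more than 2 SD of those spots. The lowest spot of the 4 miRNAs stood 60.5 times that distance above the blank mean (rno-miR-103-3p), and for rno-miR-26a-5p the lowest spot stood 642 times above it, so none of the values below was near the limit of detection. Values are normalized signals, that is, the spot intensity minus the blank mean, scaled so that the median of the miRNAs detected on that array was 25. Differences are DEX minus Control on the log2 scale. With 5 arrays in each group, the number of arrays limited the precision.

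The arrays differed in detection, signal and slide as well as in group. Between 483 and 533 miRNAs were detected per array, and the median detected signal before scaling was 17.3 on the array DEX 1 and between 35.4 and 53.5 on the other arrays. Control 1 to 4 shared slide 1, Control 5 and DEX 1 to 3 shared slide 2, and DEX 4 and 5 shared slide 3, so that only slide 2 held both groups. Spots without a probe had a median of 37.7 on DEX 4 and 28.8 on DEX 5, after subtraction of the blank mean. On the other arrays this median lay between -0.80 and 10.2. Slide 3 held DEX arrays only, so slide and group cannot be told apart in this value. As a look at the tissue, 6 heart muscle miRNAs were taken, among them rno-miR-1-3p and rno-miR-208a-3p, and all were detected on all arrays. Their summed signal lay between 32202 and 46018 in Control and between 31101 and 45001 in DEX. No other tissue or heart chamber was measured here, so these values cannot check the left ventricle label itself. The summed signal of 6 miRNAs of blood cells lay between 1263 and 1753 in Control and between 1099.95 and 1931 in DEX. The single miRNAs of this list differed in opposite directions. Among those of red blood cells, the log2 differences were -0.59 for rno-miR-451-5p, -0.75 for rno-miR-144-3p and 0.019 for rno-miR-486. Among those of white blood cells, they were 0.34 for rno-miR-223-3p, 0.29 for rno-miR-142-3p and 0.21 for rno-miR-150-5p. None of the 6 had an adjusted p below 0.05 by limma, and their part in the results was not tested. In tissue RNA, fewer cells of a type and less RNA per cell cannot be told apart.

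The signal of rno-miR-26a-5p was 4615, 4123.5, 2799, 2325 and 4958 on the arrays Control 1 to 5. It was 5259, 3131, 3244, 4007 and 5097 on DEX 1 to 5. DEX 1 and DEX 5 were the highest arrays and Control 3 and Control 4 the lowest, and the groups overlapped. Control averaged 3764 ± 1149 (SD, n = 5) and DEX 4148 ± 1001 (SD, n = 5).

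The signal of rno-miR-26b-5p was 772, 776, 645, 759.6 and 865 on Control 1 to 5. It was 1017, 847, 832, 715 and 999.6 on DEX 1 to 5. Control 3 was the lowest array, as DEX 1 was the highest, and DEX 4 lay below 4 of the 5 Control arrays. Control averaged 763 ± 78.3 (SD, n = 5) and DEX 882 ± 126 (SD, n = 5).

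The signal of rno-miR-103-3p was 347, 343, 249, 287 and 453 on Control 1 to 5. It was 406, 347, 296, 314 and 427 on DEX 1 to 5. A Control array, Control 5, was the highest of all 10, and Control 3 and Control 4 were the lowest. Control averaged 336 ± 77.0 (SD, n = 5) and DEX 358 ± 56.9 (SD, n = 5).

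The signal of rno-miR-107-3p was 348, 324, 266, 303 and 422 on Control 1 to 5. It was 391, 357, 306, 311 and 432 on DEX 1 to 5. DEX 5 and Control 5 were the highest arrays, and Control 3 and Control 4 were again the lowest. Control averaged 333 ± 58.5 (SD, n = 5) and DEX 359 ± 53.4 (SD, n = 5).

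**Figure D1:**
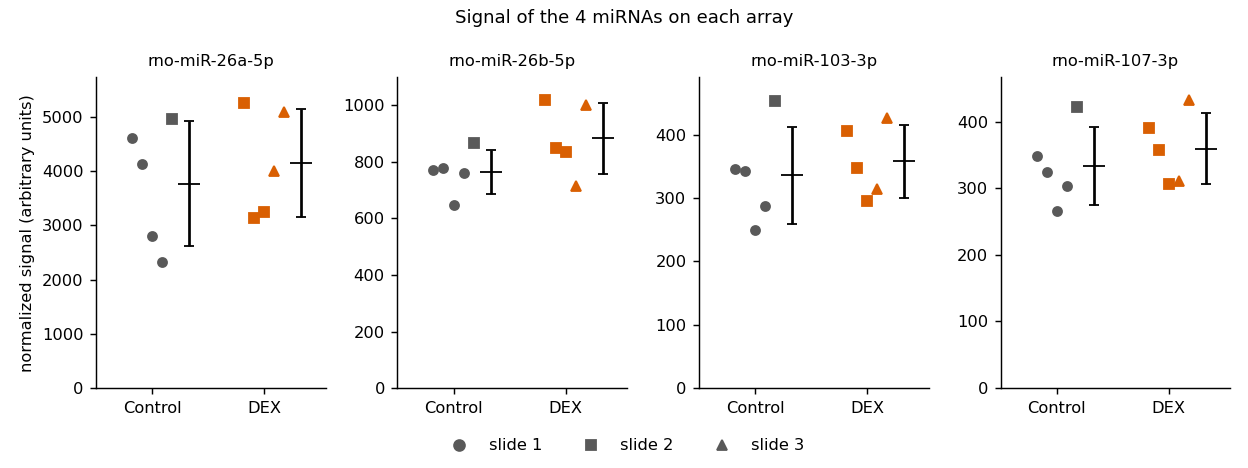
Normalized signal (linear axis from 0, arbitrary units) of each of the 4 miRNAs on the 5 Control and 5 DEX arrays, with symbols for the slide and bars for the mean ± SD of each group. The groups overlapped for all 4 miRNAs, and Control 5 on slide 2 was the highest Control array of each.

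The comparison of DEX with Control asks whether the abundance of these miRNAs in the heart differed after the infusion. None of the 4 miRNAs passed the test. With limma and Benjamini-Hochberg adjustment over all 503 miRNAs tested, 0 of the 4 had an adjusted p below 0.05, as against 0% of all miRNAs tested (0 called, smallest adjusted p 0.115). At an unadjusted p below 0.05, the count was 0 of 4 as against 15 miRNAs, or 2.98% of all. The methods' t-test on the same values gave 15 miRNAs at p below 0.05, 8 of them with a change of at least 1.5-fold, and 0 after Benjamini-Hochberg adjustment.

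rno-miR-26b-5p had the largest mean difference of the 4, 0.20 ± 0.14 (SE) on the log2 scale, with a 95% interval from -0.11 to 0.51 and an adjusted p of 0.906 by limma. This is a DEX level of 1.15 times that of Control, with an interval from 0.927 to 1.43. The difference of rno-miR-26a-5p was 0.17 ± 0.24 (interval -0.35 to 0.68), a ratio of 1.12 with an interval from 0.784 to 1.60. The difference of rno-miR-103-3p was 0.11 ± 0.18 (interval -0.28 to 0.50), and that of rno-miR-107-3p was 0.12 ± 0.16 (interval -0.23 to 0.46). The adjusted p of these 3 miRNAs was 0.914 by limma, and the ratios of rno-miR-103-3p and rno-miR-107-3p were both 1.08, with intervals from 0.822 to 1.41 and from 0.852 to 1.38. Two-sided exact permutation tests over the arrays gave p = 0.540 for rno-miR-26a-5p, 0.135 for rno-miR-26b-5p, 0.563 for rno-miR-103-3p and 0.444 for rno-miR-107-3p, where 0.00794 is the smallest p that 5 against 5 arrays allow. After adjustment over the 503 miRNAs, these exact p-values lay between 0.899 and 0.912. The intervals leave room for a change of 1.43-fold up in rno-miR-26b-5p and of 1.60-fold up in rno-miR-26a-5p, so that equal levels were not shown.

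All 4 mean differences were above 0, as were 59.2% of those of all miRNAs tested. Their median was 0.14, beside 0.044 over all 503. The groups overlapped for each of the 4, and 3 miRNAs of all those tested, or 0.596%, had groups that did not overlap. Because 1 normalization factor per array moves all 4 miRNAs together, the 4 directions are not separate observations. They turned without any scaling between arrays, where the differences of rno-miR-26a-5p, rno-miR-26b-5p, rno-miR-103-3p and rno-miR-107-3p were -0.040, -0.0027, -0.099 and -0.089. There the median of all miRNAs was itself shifted to -0.16, so that all 4 lay above it.

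The slide also moved with the result. Within slide 2, where 3 DEX arrays met only 1 Control array, and equally with the slide as a fixed term over all arrays, the differences were -0.40 for rno-miR-26a-5p, -0.39 for rno-miR-103-3p and -0.27 for rno-miR-107-3p, while that of rno-miR-26b-5p was 0.049. The median of all miRNAs was -0.19 in that comparison. The value rests on Control 5, the array on which the 4 miRNAs were highest among the Control arrays. With the slide as a random term, the differences were 0.20, 0.22, 0.14 and 0.14 for rno-miR-26a-5p, rno-miR-26b-5p, rno-miR-103-3p and rno-miR-107-3p. Without slide 3, an alternative added after the data had been seen, they were 0.061, 0.24, 0.075 and 0.089. None of these differences had an adjusted p below 0.05 by limma.

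**Figure D2:**
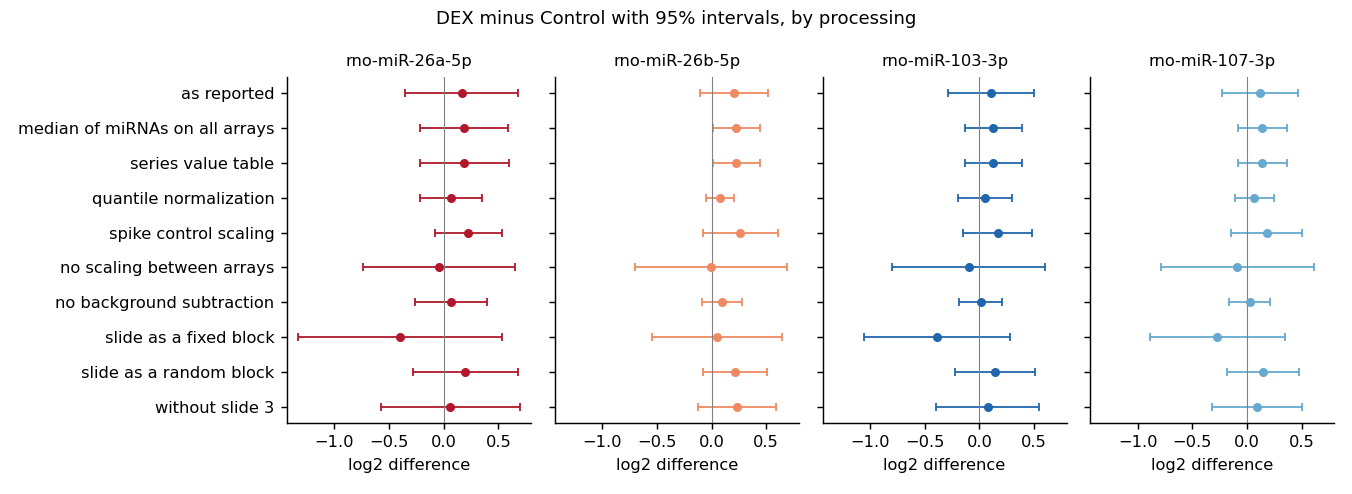
Difference DEX minus Control (log2, horizontal axis) of each of the 4 miRNAs with its 95% interval from limma, under 10 ways of processing or modelling the data. The intervals include 0 except for rno-miR-26b-5p in the authors' value table and with the median taken over the miRNAs detected on all arrays, where they start just above it.

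rno-miR-26b-5p was the only one of the 4 for which the choice of scaling moved an unadjusted p across 0.05. The authors' scores, which were scaled on the 405 miRNAs detected on all 10 arrays, were 490, 480, 450, 551 and 505 for rno-miR-26b-5p on Control 1 to 5. They were 614, 560, 615, 516 and 589 on DEX 1 to 5. On this scale 4 of the 5 DEX arrays lay above the highest Control array, Control 4, and DEX 4 lay within the Control range. The log2 difference was 0.23 ± 0.097, with an unadjusted p of 0.0402 and an adjusted p of 0.615 by limma. The same scaling applied to the scanner intensities gave 0.22 ± 0.098 with an adjusted p of 0.632 and a two-sided exact permutation p of 0.0159 before adjustment. The size of the difference was about the same under either scaling, and the spread within groups (SD of log2 signal) was 0.107 with the common set of miRNAs and 0.183 with each array's own.

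The 4 miRNAs varied together only in part. Pearson's r over the arrays was 0.980 between rno-miR-103-3p and rno-miR-107-3p but 0.624 between rno-miR-26a-5p and rno-miR-26b-5p. On average, the 4 miRNAs shared high and low arrays. On Control 3 and Control 4 their log2 signals lay on average 0.40 and 0.31 below their own means over all arrays (mean deviations of -0.40 and -0.31). On Control 5, DEX 1 and DEX 5 they lay 0.29, 0.30 and 0.34 above, with both groups thus at the high end. The size of these deviations depended on the scaling. With the median taken over the 405 miRNAs detected on all arrays, the mean deviations were -0.31 and -0.16 on Control 3 and Control 4, and 0.13, 0.19 and 0.19 on Control 5, DEX 1 and DEX 5. The change between the 2 scalings is the same for all miRNAs of an array. Relative to the common set, each array's own median moved the log2 signals by 0.17, 0.12 and 0.15 on Control 5, DEX 1 and DEX 5. On Control 3 and Control 4 it moved them by -0.090 and -0.15. That part of the shared highs and lows is thus not particular to the 4 miRNAs.

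**Figure D3:**
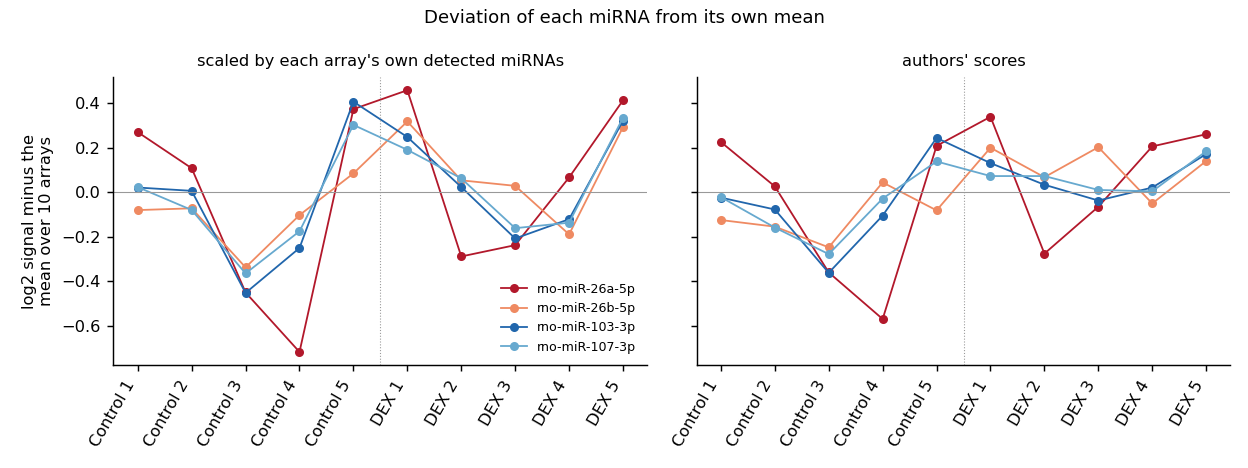
Log2 signal of each of the 4 miRNAs minus its own mean over the 10 arrays (vertical axis) on each array, with the scaling used here on the left and the authors' scores on the right. The lines of rno-miR-103-3p and rno-miR-107-3p ran close together, and rno-miR-26a-5p departed from the others on Control 4 and DEX 2.

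Stability across arrays was measured as the SD of log2 signal over the 10 arrays, and was compared with that of the 405 miRNAs detected on all of them, whose median SD was 0.265. rno-miR-26b-5p had an SD of 0.203, which placed it 98th from the most stable. rno-miR-107-3p had an SD of 0.226 and placed 144th, while rno-miR-103-3p had an SD of 0.270 and placed 211th. rno-miR-26a-5p had an SD of 0.404 and placed 333rd. Its highest signal was 2.26 times its lowest, as against 1.58 times for rno-miR-26b-5p. The coefficients of variation of the linear signal were 26.2% for rno-miR-26a-5p, 14.2% for rno-miR-26b-5p, 18.7% for rno-miR-103-3p and 15.8% for rno-miR-107-3p. No test of the difference between these spreads was made.

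With the processing used here, bright spots varied less than dim ones in general, and among the 135 miRNAs with the highest mean signal the median SD was 0.215. Set against these, only rno-miR-26b-5p (48th of 135) lay under the median. rno-miR-107-3p was 77th, rno-miR-103-3p was 110th and rno-miR-26a-5p was 131st. Without background subtraction the relation turned, with a median SD of 0.157 among the 135 bright miRNAs and of 0.0741 over all 405. The 5 miRNAs with the lowest SD of all were rno-miR-212-3p, rno-miR-760-5p, rno-miR-370-3p, rno-miR-667-3p and rno-miR-25-5p, between 0.0714 and 0.116. None of them is among the common reference miRNAs listed for this comparison.

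The order of the 4 miRNAs depended on the scaling. With the common set of 405 miRNAs the SDs were 0.309 for rno-miR-26a-5p, 0.155 for rno-miR-26b-5p, 0.168 for rno-miR-103-3p and 0.136 for rno-miR-107-3p, beside a median of 0.226. rno-miR-107-3p was then the most stable of the 4 (43rd of 405). With scaling to the spike controls, rno-miR-26b-5p had the highest SD of the 4, 0.247, and rno-miR-26a-5p had 0.195.

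**Figure D4:**
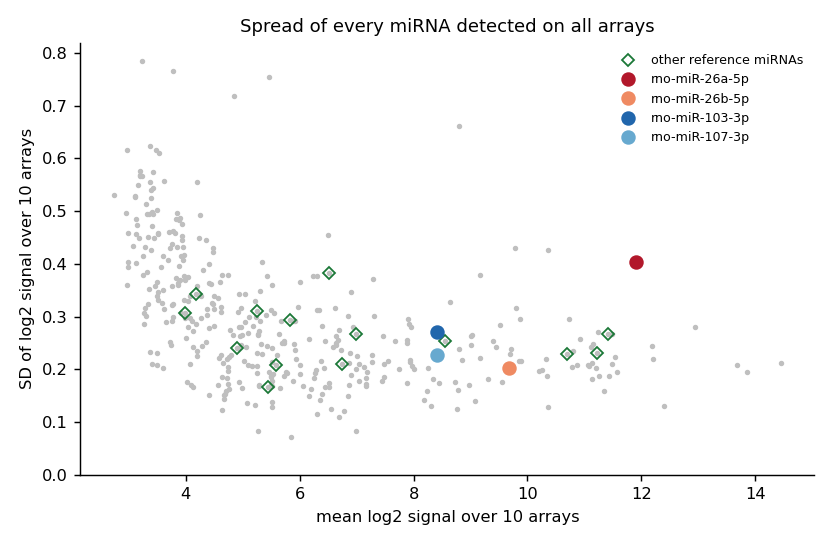
SD of log2 signal over the 10 arrays (vertical axis) against mean log2 signal (horizontal axis) of the 405 miRNAs detected on all arrays, with 14 other reference miRNAs as open diamonds. rno-miR-26a-5p stood high for its signal with an SD of 0.404, and the other 3 members lay between 0.203 and 0.270.

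A measure of stability that needs no scaling is the ratio of 2 miRNAs on the same array. The log2 ratio of rno-miR-103-3p over rno-miR-107-3p was -0.0053, 0.083, -0.091, -0.079 and 0.10 on Control 1 to 5. It was 0.054, -0.042, -0.050, 0.012 and -0.017 on DEX 1 to 5. Both groups lay around the same value, and the SD over the 10 arrays was 0.0659. Over the 9045 pairs of the 135 brightest miRNAs, the median SD of such a ratio was 0.207 and only 0.796% of pairs varied less. The difference of this ratio between DEX and Control was -0.010 ± 0.080 (SE), with a 95% interval from -0.19 to 0.17 and an adjusted p of 0.975 by limma.

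The log2 ratio of rno-miR-26a-5p over rno-miR-26b-5p varied more. It was 2.58, 2.41, 2.12, 1.61 and 2.52 on Control 1 to 5. It was 2.37, 1.89, 1.96, 2.49 and 2.35 on DEX 1 to 5. Control 4 was the lowest array and DEX 2 and DEX 3 came next, so that low ratios were found in both groups and on slides 1 and 2. The SD over the 10 arrays was 0.320, and 86.1% of the 9045 bright pairs varied less. On the linear scale the ratio of signals ran from 3.06 on Control 4 to 5.98 on Control 1. These ratios show unequal change between arrays and say nothing of the relative amounts of the 2 miRNAs, since probes differ in how strongly they bind. The difference between DEX and Control was -0.037 ± 0.20 (SE), with an interval from -0.47 to 0.40 and an adjusted p of 0.923 by limma. It changed sign when any 1 of the arrays Control 1, Control 2, Control 5, DEX 2 or DEX 3 was left out, within a range from -0.20 to 0.046, and with the slide as a fixed term it was -0.45 (adjusted p = 0.700).

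**Figure D5:**
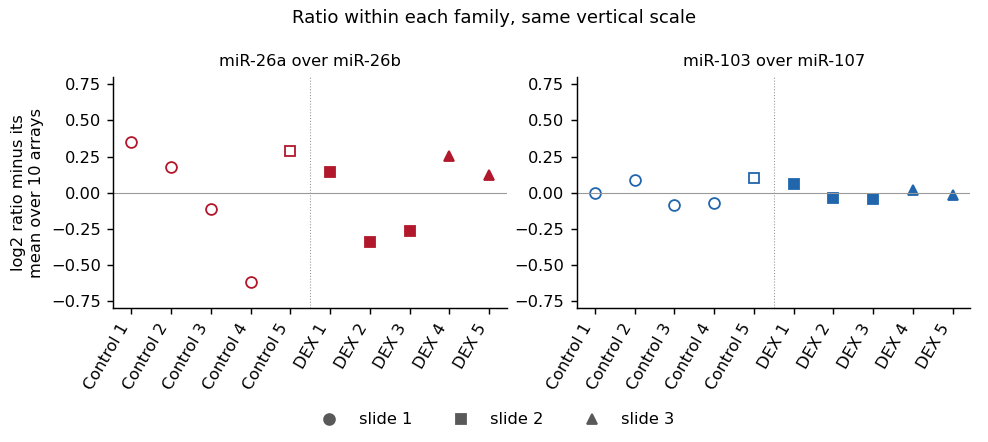
Log2 ratio of the 2 members of each family on the same array, minus its mean over the 10 arrays (vertical axis, same scale in both panels), with open symbols for Control, filled symbols for DEX and shapes for slides. The ratio of miR-103 over miR-107 stayed within about 0.10 of its mean, and that of miR-26a over miR-26b was lowest on Control 4.

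Since these miRNAs often serve as references, they were set beside 14 other miRNAs in common use for that purpose. Each of the 18 was scored by the mean SD of its log2 ratio to the other 17 over the arrays, where a low score means that it kept pace with the rest. rno-miR-107-3p had the lowest score (0.149), rno-miR-191a-5p the next (0.151) and rno-miR-103-3p the third (0.152), followed by rno-miR-16-5p (0.165) and rno-let-7a-5p (0.168). The first 3 scores differed by little, and their order was not tested. The near-identical rno-miR-103-3p and rno-miR-107-3p each lowered the other's score. rno-miR-26b-5p was 10th (0.189) and rno-miR-26a-5p was 17th (0.269), ahead of rno-miR-423-5p (0.366). All 14 other reference miRNAs were detected on every array. By limma, 0 of them passed at an adjusted or an unadjusted p below 0.05, as against 0% and 2.98% of all miRNAs tested. 11 of these 14 were higher in DEX on average, as against 59.2% of all miRNAs tested. Their median difference was 0.082, beside 0.044 over all miRNAs tested.

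Scaling the arrays to a single one of these miRNAs, as PCR data are scaled to a reference, changed the spread of the other miRNAs. The median SD of the 405 miRNAs was 0.368 after scaling to rno-miR-26a-5p, 0.271 after scaling to rno-miR-103-3p, 0.263 after scaling to rno-miR-26b-5p and 0.253 after scaling to rno-miR-107-3p, as against 0.265 with each array's own median. Scaling to the mean of all 4 gave 0.2597, and the common set of miRNAs gave 0.226. The test between DEX and Control had 0 miRNAs with an adjusted p below 0.05 under each of these scalings by limma. At an unadjusted p below 0.05 it had 26 miRNAs after scaling to rno-miR-26a-5p, 25 to rno-miR-103-3p, 78 to rno-miR-26b-5p and 31 to rno-miR-107-3p, as against 15 with each array's own median. With rno-miR-26b-5p as the reference, 74 miRNAs of the 502 others were higher in DEX on average, and with rno-miR-103-3p it was 172. Such scaling subtracts the reference's own difference, 0.20 and 0.11 here, from every other miRNA. These 2 counts therefore follow from the difference of the reference and are no separate result.

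The miRNAs whose levels followed each of the 4 most closely over the 10 arrays were sought among 500 tested miRNAs, as a description. These include miRNAs not detected on some arrays, whose values there were set to the lowest detected signal. All miRNAs of an array share 1 scaling factor, and the median correlation of all miRNAs was 0.497 with rno-miR-26a-5p and 0.386 with rno-miR-26b-5p. rno-miR-26a-5p was followed most closely by rno-miR-25-3p (Pearson's r = 0.983), rno-miR-532-5p (0.954) and rno-miR-20a-5p (0.947). Its family member rno-miR-26b-5p came 183rd with r = 0.624. rno-miR-26b-5p was followed most closely by rno-miR-29c-3p (0.957), rno-miR-29a-3p (0.950) and rno-miR-20b-5p (0.949). rno-miR-103-3p was followed by rno-let-7b-5p (0.989), rno-let-7f-5p (0.987) and rno-miR-23b-3p (0.987), and rno-miR-107-3p was followed by rno-let-7e-5p (0.986), rno-miR-23a-3p (0.981) and rno-miR-103-3p (0.980). With the common set of miRNAs for scaling, the median correlation with rno-miR-26a-5p was 0.155, rno-miR-25-3p still came first with 0.970, and that between rno-miR-26a-5p and rno-miR-26b-5p was 0.179.

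The hairpins also yield a strand from their other arm, which is usually the less abundant one. The array held 5 such miRNAs, of which 3 were detected on at least 5 arrays and tested. The sequences of the other arms of the miR-26 hairpins are shown because their seeds differ from each other, unlike those of the main strands.
rno-miR-26a-3p: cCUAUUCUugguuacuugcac
rno-miR-26b-3p: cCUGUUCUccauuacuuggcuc
rno-miR-26b-3p gave signals of 32.0, 29.6, 29.2, 29.8 and 22.6 on Control 1 to 5. It gave 24.95, 27.1, 25.1, 23.8 and 26.6 on DEX 1 to 5. Control 5 was the lowest array of all, below the other Control arrays and within reach of DEX. The difference was -0.16 ± 0.13 (adjusted p = 0.906 by limma).

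rno-miR-26a-3p was detected on all 5 Control arrays with signals of 15.2, 10.1, 9.67, 7.61 and 7.42, and on 3 DEX arrays, DEX 3 to 5, with signals of 5.73, 10.05 and 10.7. On DEX 1 and DEX 2 it was not above the detection limit and was set to the lowest detected signal of the array, 4.98 and 3.77. Its difference was -0.57 ± 0.30 (adjusted p = 0.906 by limma), a value that depends on that floor. rno-miR-103-1-5p had a difference of -0.16 ± 0.16 (adjusted p = 0.906). Thus 0 of the 3 tested other arms passed, as against 0% of all miRNAs tested, and 0 were higher in DEX, as against 59.2% of all. Their median was -0.16, beside 0.044 over all miRNAs tested. rno-miR-103-2-5p was detected on 2 arrays and rno-miR-107-5p on 3, and they were not tested.

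The miR-15/16 family, known for restraining cell cycle genes, has a seed that is part of the miR-103 and miR-107 sequence shifted by 1 base. The 7 letters AGCAGCA, read at bases 2 to 8 of rno-miR-15b-5p, rno-miR-16-5p, rno-miR-195-5p, rno-miR-322-5p and rno-miR-497-5p, stand at base 1 of rno-miR-103-3p. The 7 miRNAs listed with this family also include rno-miR-503-5p, whose seed AGCAGCG does not occur in rno-miR-103-3p. They include rno-miR-15a-5p too, for which no sequence was compared. All 7 were detected on all arrays, and 0 of them passed the test, as against 0% of all miRNAs tested. Their differences lay between 0.032 (rno-miR-15b-5p) and 0.19 (rno-miR-15a-5p), with a median of 0.16, beside 0.11 and 0.12 for rno-miR-103-3p and rno-miR-107-3p. All 7 were above 0, as were 59.2% of all miRNAs tested.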

How the data were processed

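The deposited scanner files hold the median spot intensity at 635 nm, which the authors' scanner merged over 3 gain settings and left without background correction. The second deposited table holds the authors' score per miRNA and array, which is the intensity minus the blank mean, scaled to a median of 25 over the 405 miRNAs with a value on all arrays. The miRBase release and the software versions used by the authors are not given in the sources used here. Here, the mean of the blank spots (5% trimmed at each end) was subtracted, each array was scaled to a median of 25 over its own detected miRNAs, undetected miRNAs were set to the array's lowest detected value (3.64 to 5.09), and log2 was taken. Group differences of the 503 miRNAs that at least 5 of 10 arrays detected were fitted in R 4.3.3 by limma 3.58.1 (lmFit and eBayes, two-sided p, Benjamini-Hochberg adjustment over all of them), and the code was tested on simulated data. Single miRNAs were also compared with exact permutation tests in Python 3.11.15, and figures were drawn with matplotlib 3.10.9.

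The slide of each array was read from the scanner's file naming. Groups and replicate numbers came from the labels, which do not state that each array was a separate animal. The methods give 1 RNA extract per heart. The 4 miRNAs are the members by name; also named were the tested miRNAs of the fixed lists (other arms, common references, related seed, cell markers), the 3 miRNAs most like each member by Pearson's r, and the 5 with the lowest SD. The members and lists were chosen with earlier results of these data known. All columns of sample values were used (0 unused). Alternatives covered the background correction, scaling, detection filter, model, slide, replicate number and each array left out.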

Additional observations from a re-analysis of the deposited data

Results flagged for a closer look

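In 1 of the 18 sets of 5 arrays examined (the 4 miRNAs, the 3 tested other arms and both within-family ratios, each in Control and in DEX), a single array stood apart from the rest. For rno-miR-26b-3p, Control 5 was the lowest Control array with a signal of 22.6, and its gap to the next array was 0.740 of the range of the group on the log2 scale, above the critical value of 0.71. About 0.9 such sets are found by chance among 18. Control 5 is the one Control array on slide 2, together with DEX 1 to 3, on which rno-miR-26b-3p had signals of 24.95, 27.1 and 25.1. The part of the slide in this value was not tested. For the main strands of both families, Control 5 was the highest Control array.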

How the results depend on the processing

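No miRNA had an adjusted p below 0.05 by limma under any of the 31 alternatives or by the methods' t-test (smallest adjusted p between 0.0609 and 0.997), while 7 (no background subtraction) to 78 (scaled to rno-miR-26b-5p) had an unadjusted p below 0.05, as against 15. The differences between DEX and Control of the 4 miRNAs kept their side of the threshold throughout. Their direction turned without scaling between arrays (-0.040, -0.0027, -0.099 and -0.089 for rno-miR-26a-5p, rno-miR-26b-5p, rno-miR-103-3p and rno-miR-107-3p), and, except for rno-miR-26b-5p, with the slide as a fixed term and within slide 2 (-0.40, -0.39 and -0.27 for rno-miR-26a-5p, rno-miR-103-3p and rno-miR-107-3p in both). The differences of rno-miR-103-3p and rno-miR-107-3p also turned when arrays were scaled to rno-miR-26a-5p (-0.059 and -0.049) or to the mean of the 4 (-0.041 and -0.031). With scaling to rno-miR-26b-5p, an alternative added after the data had been seen like that to rno-miR-107-3p, the differences of rno-miR-26a-5p, rno-miR-103-3p and rno-miR-107-3p turned to -0.037, -0.096 and -0.086, and with scaling to rno-miR-107-3p that of rno-miR-103-3p turned to -0.010. Scaling to a member, or to the mean of the 4, subtracts the difference of that reference from all others. The turns under these scalings therefore follow from the main differences of the 4. The cause of the other turns was not tested. With normexp and an offset of 50, the differences of rno-miR-26a-5p and rno-miR-26b-5p were 1.14 ± 1.34 and 1.34 ± 0.80, where the background column rose with the spot signal (r across miRNAs between 0.953 and 0.984).

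Leaving out 1 array at a time gave differences from 0.0071 to 0.28 for rno-miR-26a-5p, 0.14 to 0.28 for rno-miR-26b-5p, 0.0068 to 0.22 for rno-miR-103-3p and 0.040 to 0.21 for rno-miR-107-3p, with 0 miRNAs called each time and 16 to 36 at an unadjusted p below 0.05. The ratio within the miR-26 family ranged from -0.20 to 0.046 and that of rno-miR-103-3p over rno-miR-107-3p from -0.033 to 0.015. The SDs ranged from 0.335 to 0.428, 0.175 to 0.215, 0.232 to 0.287 and 0.198 to 0.2398 in the order above, and 2 to 3 of the 4 lay under the median SD. With the replicate number as a block, 0 miRNAs were called and 35 had an unadjusted p below 0.05. With this replicate block, the differences of the 4 miRNAs remained 0.17, 0.20, 0.11 and 0.12, with adjusted p between 0.673 and 0.721. The SE fell from 0.238 to 0.170 for rno-miR-26a-5p and from 0.144 to 0.112 for rno-miR-26b-5p. It fell from 0.179 to 0.101 for rno-miR-103-3p and from 0.160 to 0.0932 for rno-miR-107-3p. Over the tested miRNAs, same-numbered arrays deviated together with correlations between -0.080 and 0.105. Whether the numbers pair the arrays was not tested beyond this.

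The SDs over arrays depended on the processing. For rno-miR-26a-5p (0.404) they were 2.26 with normexp, 0.265 without background subtraction, 0.309 with the common set of miRNAs, 0.195 with quantile normalization or spike scaling and 0.309 in the authors' scores. For rno-miR-26b-5p (0.203) they were 1.48, 0.151, 0.155 and 0.0662 in the first 4 of these and 0.383 without scaling. For rno-miR-103-3p (0.270) they were 0.661, 0.154, 0.168 and 0.166, then 0.401 without scaling, 0.187 with spike scaling and 0.169 in the authors' scores. For rno-miR-107-3p (0.226) they were 0.6604, 0.143, 0.136 and 0.108, then 0.413 without scaling and 0.137 in the authors' scores. The number of the 4 under the median SD was 2, as against 0 with normexp and without background subtraction, and 4 with quantile normalization, spike scaling or no scaling. Where it was 0, the median SD of the 135 brightest miRNAs was itself above that of all 405. It was 0.524 beside 0.163 with normexp and 0.157 beside 0.0741 without background subtraction. All spots of the 4 miRNAs lay at least 60.5 times the detection distance above the blank mean, there were 5 arrays per group, and only slide 2 held both groups.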
